A study of Mus musculus with 18 samples.

Results

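The 7 mouse genes described here stood far higher in AE9a cells given the compound C16 than in AE9a cells given the solvent DMSO, and their levels are given in 18 RNA sequencing libraries. They are *Nrg2*, *Ncam1*, *Slc16a7*, *Zdhhc2*, *Amot*, *Myo18b* and *Sfmbt2*, which are 7 of the 41079 genes in the count tables and 7 of the 28108 genes with a fragment in any library. They were chosen by their rise in AE9a C16 over AE9a DMSO, so every value that rests on AE9a C16 or AE9a DMSO libraries is a description of the choice and carries no test. Tests on these 7 genes were made in WT libraries and between the genotypes under RE, whose libraries the choice did not use. Libraries were made from cKit+ mouse bone marrow cells of 2 genotypes, each under 3 treatments with 3 libraries per group. The groups were AE9a C16, AE9a RE, AE9a DMSO, WT C16, WT RE and WT DMSO. The study asked how blocking WDR5 and MLL1 alters transcripts in AE9a and wild-type stem and progenitor cells. The labels give neither the target of C16 or RE, nor a dose, a time or the promoter behind AE9a, and whether the replicates were different mice or cultures is not stated in them. P-values thus measure the spread between these libraries, which may be technical.

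AE9a is a truncated splice form of the AML1-ETO fusion, in which the DNA-binding part of RUNX1 is joined to RUNX1T1. It drives leukaemia in mice. WDR5 is a shared subunit of the MLL family of histone methyltransferases, and MLL1 is a member of that family that haematopoietic stem cells need. The 7 genes belong to no common pathway. *Nrg2* encodes a neuregulin, a growth factor of the EGF family that binds ERBB receptors. *Ncam1* encodes the adhesion molecule CD56, best known on neurons, natural killer cells and some myeloid leukaemias. *Slc16a7* encodes the monocarboxylate transporter MCT2, which carries pyruvate and lactate. *Zdhhc2* encodes a palmitoyltransferase that attaches a lipid to membrane proteins, *Amot* encodes angiomotin, a junction scaffold that binds YAP, and *Myo18b* encodes an unconventional myosin of striated muscle. *Sfmbt2* encodes a Polycomb protein with MBT repeats that works with YY1, and in mouse trophoblast it is expressed from the paternal allele.

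Library totals ran from 16053727 to 27207748 fragments, and levels below are CPM, fragments scaled by the total of their library, unless named otherwise. *Runx1t1*, whose sequence is part of the AE9a fusion, had 2.35, 4.06 and 0.205 CPM in AE9a C16, 34.5, 42.7 and 43.2 CPM in AE9a RE and 34.5, 46.8 and 38.7 CPM in AE9a DMSO, and at most 0.402 CPM in WT libraries. The library labelled AE9a C16 replicate 3 thus had a WT level of *Runx1t1*, and it lay 0.657 to 0.686 from its 2 group mates in root mean square log2 distance, which lay 0.349 from each other. *Kit*, the receptor used for the cell selection, had 214.9 to 312 CPM in AE9a C16, 1331 to 1551 CPM in AE9a RE, 885.5 to 1206 CPM in AE9a DMSO and 60.8 to 220.8 CPM in WT libraries. WT replicate 2 stood apart from WT replicates 1 and 3 under every treatment, and WT C16 replicate 2 lay 0.704 to 0.744 from the AE9a C16 libraries, against 1.11 to 1.17 from the other WT C16 libraries. The library nearest to WT C16 replicate 2 was WT DMSO replicate 2, at 0.654. Genotypes were deposited as separate tables, so a difference in handling and the genotype cannot be told apart. In bulk RNA, fewer cells of a type and less RNA per cell cannot be told apart.

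All 7 genes had every AE9a C16 library above every AE9a DMSO library, as did 33.3% of the 14704 genes tested in AE9a. Fitted differences ran between log2 1.98 for *Nrg2* and log2 2.63 for *Zdhhc2*, and the 7 ranked between 8 and 35 among the 14704 genes by size of rise, with 28 other genes among the top 35. In that comparison 66.3% of genes were called by edgeR's quasi-likelihood test at an adjusted p of 0.05, so a call was common and nothing is read from the calls of the 7. Per kilobase of exon, the order of levels in AE9a C16 was *Amot* with 4.03 ± 0.836, *Zdhhc2* with 2.36 ± 0.224, *Nrg2* with 1.35 ± 0.210, *Myo18b* with 1.12 ± 0.682, *Ncam1* with 0.858 ± 0.287, *Slc16a7* with 0.525 ± 0.0835 and *Sfmbt2* with 0.343 ± 0.0499 CPM per kilobase (SD, n = 3). *Nrg2*, *Myo18b* and *Ncam1* each lay within the summed SD of the next in that order. AE9a DMSO had the same order at lower levels, between 0.841 ± 0.181 CPM per kilobase for *Amot* and 0.0602 ± 0.0047 CPM per kilobase for *Sfmbt2* (SD, n = 3).

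**Figure D1:**
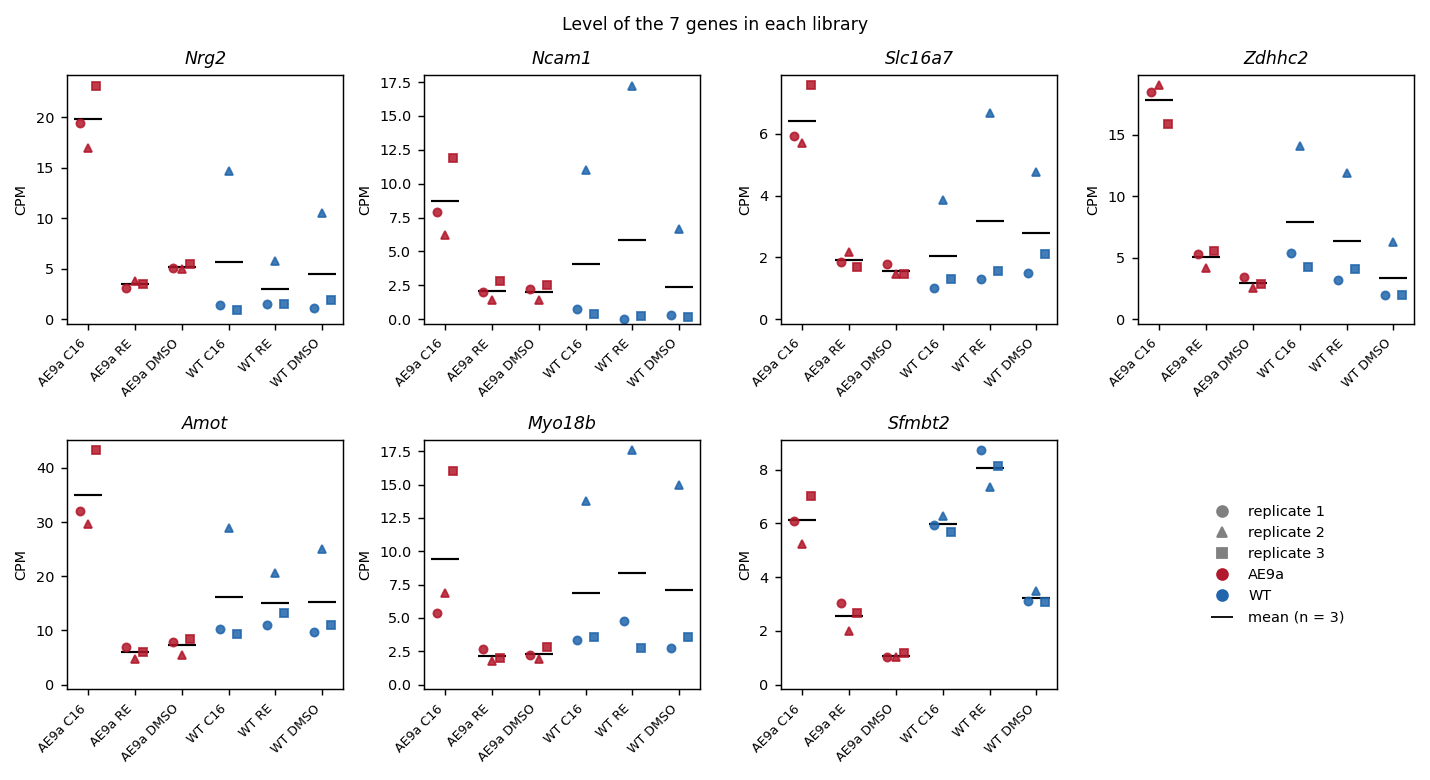
Level of each gene in CPM (vertical axis, linear) in the 18 libraries, by group along the horizontal axis; symbols mark the replicate number and black lines the mean of 3 libraries. All AE9a C16 libraries lie above all AE9a DMSO libraries, and WT replicate 2 lies above the other WT libraries for 6 of the 7 genes, all but *Sfmbt2*.

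*Nrg2* (chromosome 18, 36147634 to 36332754, minus strand, GRCm39 as are all gene positions here) had 19.5, 17.0 and 23.1 CPM in AE9a C16, 3.13, 3.75 and 3.47 CPM in AE9a RE and 5.06, 4.96 and 5.45 CPM in AE9a DMSO. The 3 AE9a groups did not overlap. RE libraries lay below DMSO libraries, as did 31.3% of genes, and C16 libraries lay above them. The fitted log2 difference was 1.98 ± 0.13 (SE) for C16 and -0.53 ± 0.14 (SE) for RE against DMSO. In WT cells the level was 1.37, 14.7 and 0.896 CPM under C16, 1.55, 5.79 and 1.55 CPM under RE and 1.10, 10.5 and 1.90 CPM under DMSO, so replicate 2 was the high library of each group.

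*Ncam1* (chromosome 9, 49413434 to 49710909, minus strand) had 7.94, 6.23 and 11.9 CPM in AE9a C16, 1.98, 1.45 and 2.79 CPM in AE9a RE and 2.20, 1.40 and 2.55 CPM in AE9a DMSO. RE and DMSO libraries overlapped, and the fitted log2 difference from DMSO was 2.13 ± 0.32 (SE) for C16 and 0.07 ± 0.36 (SE) for RE. WT levels were 0.764, 10.98 and 0.422 CPM under C16, 0, 17.2 and 0.277 CPM under RE and 0.289, 6.63 and 0.158 CPM under DMSO. Outside replicate 2, WT libraries held between 0 and 15 *Ncam1* fragments each, and the count of 0 in WT RE replicate 1 allows up to 0.172 CPM (3 fragments, for counting error only).

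*Slc16a7* (chromosome 10, 125055139 to 125225455, minus strand) had 5.94, 5.72 and 7.59 CPM in AE9a C16, 1.87, 2.17 and 1.68 CPM in AE9a RE and 1.79, 1.47 and 1.48 CPM in AE9a DMSO. Its fitted log2 difference from DMSO was 2.06 ± 0.17 (SE) for C16 and 0.33 ± 0.19 (SE) for RE, whose libraries overlapped those of DMSO, though each was above the DMSO library of its number. In WT cells it had 1.02, 3.85 and 1.32 CPM under C16, 1.32, 6.67 and 1.55 CPM under RE and 1.5, 4.78 and 2.11 CPM under DMSO. WT C16 was below the DMSO library of the same replicate number in each of the 3 cases. For this trait and that of RE in AE9a, the share over all genes is not given here.

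*Zdhhc2* (chromosome 8, 40876526 to 40946178, plus strand) had 18.4, 19.02 and 15.9 CPM in AE9a C16, 5.33, 4.17 and 5.58 CPM in AE9a RE and 3.42, 2.57 and 2.90 CPM in AE9a DMSO. Its 3 AE9a groups did not overlap, with both compounds above DMSO; 18.9% of genes had every RE library above every DMSO library. The fitted log2 difference from DMSO was 2.63 ± 0.15 (SE) for C16 and 0.81 ± 0.16 (SE) for RE. WT levels were 5.35, 14.05 and 4.27 CPM under C16, 3.16, 11.9 and 4.10 CPM under RE and 1.96, 6.24 and 1.95 CPM under DMSO. Of its exons, 600 bases overlap *Cnot7* on the other strand, which held 992 to 2070 fragments per library, and counting ignored strand, so part of the *Zdhhc2* level is uncertain. Smaller exon overlaps join *Nrg2* to *Psd2* (135 bases, 2 to 17 *Psd2* fragments per library) and *Ncam1* to *Gm11149* (266 bases, 0 to 2 fragments).

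*Amot* (chromosome X, 144229420 to 144288145, minus strand) had 32.0, 29.7 and 43.2 CPM in AE9a C16, 6.97, 4.81 and 5.996 CPM in AE9a RE and 7.92, 5.51 and 8.45 CPM in AE9a DMSO. RE and DMSO overlapped, and the fitted log2 difference from DMSO was 2.31 ± 0.20 (SE) for C16 and -0.25 ± 0.22 (SE) for RE. Each RE library was below the DMSO library of its number, a trait whose share over all genes is not given here. WT libraries had 10.3, 29.0 and 9.39 CPM under C16, 11.1, 20.6 and 13.2 CPM under RE and 9.75, 25.01 and 10.99 CPM under DMSO. Replicates 1 and 3 of WT lay between 9.39 and 13.2 CPM whatever the treatment.

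*Myo18b* (chromosome 5, 112836742 to 113044311, minus strand) had 5.35, 6.90 and 16.01 CPM in AE9a C16, 2.69, 1.79 and 1.999 CPM in AE9a RE and 2.20, 1.91 and 2.80 CPM in AE9a DMSO. The library labelled AE9a C16 replicate 3 carried much of the C16 mean of 9.42 ± 5.76 CPM (SD, n = 3), and leaving it out gave a log2 difference of 1.46 in place of 2.07 ± 0.40 (SE). Under RE the log2 difference from DMSO was -0.05 ± 0.44 (SE). In WT it had 3.36, 13.8 and 3.53 CPM under C16, 4.76, 17.6 and 2.72 CPM under RE and 2.71, 14.95 and 3.54 CPM under DMSO. Of the 16 muscle markers, 10 including *Myod1*, *Myog* and *Des* were at 0 in all AE9a C16 libraries, and the 16 summed to 2.55 to 3.20 CPM there, against 2.91 to 3.87 CPM in AE9a DMSO.

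*Sfmbt2* (chromosome 2, 10375251 to 10600064, plus strand) had 6.09, 5.25 and 7.03 CPM in AE9a C16, 3.02, 2.002 and 2.68 CPM in AE9a RE and 1.02, 1.03 and 1.17 CPM in AE9a DMSO. Both compounds stood above DMSO without overlap, C16 by a fitted log2 difference of 2.54 ± 0.19 (SE) and RE by 1.29 ± 0.21 (SE). In WT cells the level was 5.96, 6.29 and 5.69 CPM under C16, 8.72, 7.35 and 8.15 CPM under RE and 3.12, 3.49 and 3.06 CPM under DMSO. The WT groups did not overlap either, and here replicate 2 lay with its group mates. The share of all genes with such separate WT groups is not given here. The gene body holds 71 annotated miRNA genes, of which 3 had any fragment and none more than 2 in a library.

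Without the library labelled AE9a C16 replicate 3, the log2 difference between AE9a C16 and AE9a DMSO was 1.85 for *Nrg2*, 1.84 for *Ncam1*, 1.92 for *Slc16a7*, 2.70 for *Zdhhc2*, 2.13 for *Amot* and 2.43 for *Sfmbt2*. All 7 genes span long loci, between 58.7 and 297.5 kb. These lie between the 84.3 and 98.2 percentile of the 28108 genes with a fragment in any library (median 13.8 kb). That set is wider than the 14704 genes tested in AE9a, against which the spans were not compared. Between AE9a C16 and AE9a DMSO the summed mast cell markers (8 genes) were at 302.4 to 1890 CPM against 8817 to 11633 CPM, and erythroid markers (8 genes) at 1.54 to 30.5 CPM against 548.2 to 705.8 CPM. Stromal and endothelial markers (12 genes) summed to 92.5 to 98.8 CPM in AE9a C16 and 115.1 to 146.6 CPM in AE9a DMSO, neural and glial markers (12 genes) to 59.4 to 71.5 CPM and 101.2 to 112.5 CPM, natural killer and T cell markers (12 genes) to 0.462 to 2.25 CPM and 3.38 to 3.68 CPM, and progenitor markers (8 genes) to 1212 to 1523 CPM and 2402 to 2847 CPM. Nearly all of the neural and glial sum was *Mbp*, with means of 62.1 CPM in AE9a C16 and 101.5 CPM in AE9a DMSO. Of the progenitor markers only *Kit* and *Gata2* were lower in AE9a C16, and *Gata2* was also in the mast cell list. Means in AE9a C16 and AE9a DMSO were 265.5 and 1031 CPM for *Kit* and 117.7 and 680.6 CPM for *Gata2*. *Cd34* (122.4 and 70.1 CPM), *Ptprc* (326.7 and 241.9 CPM), *Flt3* and *Cd48* were higher in AE9a C16, and *Myb* and *Ly6a* were nearly level. *Snap25*, *Rbfox3*, *Cd3e* and *Klra8* were at 0 in both groups. The part of these shifts in the differences of the 7 genes was not tested.

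RefSeq promoter records on GRCm38.p6 matched 2 of the 7 genes, 2 starts of *Sfmbt2* and 1 of *Amot*. They are shown as the matched records, and these genes were not picked for their response. *Sfmbt2* stood above DMSO without overlap under both compounds in both genotypes. *Amot* did so for C16 in AE9a and overlapped DMSO in the other 3 cases. Of all genes tested in AE9a, 33.3% did so for C16 and 18.9% for RE, and the shares in WT are not given here. The C16 part in AE9a is a description of the choice. Each line gives the 250 bases before the annotated start on the gene's strand, with capitals for matches to TGTGGT (RUNX), TGCGGT (also RUNX), AGATAA (bound by GATA factors), CCGGAA (ETS factors), GGGCGG (SP and KLF), CACGTG (the E-box), CCAAT (its own box) and TATAAA (the start-site box) on either strand. The motifs do not overlap one another in these windows.
Sfmbt2 start 1, chr2:10370201-10370450 (plus strand): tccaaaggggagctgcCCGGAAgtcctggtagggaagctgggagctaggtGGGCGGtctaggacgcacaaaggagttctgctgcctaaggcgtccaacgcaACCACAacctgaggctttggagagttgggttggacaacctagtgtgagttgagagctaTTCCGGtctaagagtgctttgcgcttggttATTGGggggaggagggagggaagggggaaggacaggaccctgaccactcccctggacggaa
Sfmbt2 start 2, chr2:10372186-10372435 (plus strand): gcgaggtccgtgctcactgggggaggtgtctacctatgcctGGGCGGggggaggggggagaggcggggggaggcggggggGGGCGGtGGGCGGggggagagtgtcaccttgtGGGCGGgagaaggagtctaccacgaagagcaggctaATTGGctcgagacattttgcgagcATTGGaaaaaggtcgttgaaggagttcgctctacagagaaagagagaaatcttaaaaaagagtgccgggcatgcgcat
Amot start 1, chrX:145487640-145487889 (minus strand): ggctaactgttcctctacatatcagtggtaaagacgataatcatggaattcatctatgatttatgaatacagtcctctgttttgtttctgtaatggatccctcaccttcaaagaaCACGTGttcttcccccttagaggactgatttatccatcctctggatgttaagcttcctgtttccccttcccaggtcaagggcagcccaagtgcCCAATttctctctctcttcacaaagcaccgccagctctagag

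The first *Sfmbt2* window had 2 matches to CCGGAA, which 12.03% of the 32851 promoter windows hold at least once, and 1 match to TGTGGT, held by 14.05%. The second had 4 matches to GGGCGG, held by 32.7%, and 2 to CCAAT, held by 33.8%. *Amot* had 1 match to CACGTG, held by 6.02%, and 1 to CCAAT. GC content was 58.4% and 60.8% in the *Sfmbt2* windows and 44.8% in the *Amot* window, against a median of 52.4% over all windows. Observed over expected CpG was 0.409 and 0.812 for *Sfmbt2* and 0.253 for *Amot*, against a median of 0.373. A match of letters is a description and shows no binding.

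The response to C16 was asked again in WT cells, in libraries that had no part in the choice. *Sfmbt2* rose: its level was 5.98 ± 0.300 CPM in WT C16 against 3.22 ± 0.2296 CPM in WT DMSO (SD, n = 3 each), a log2 change of 0.96 ± 0.15 (SE) with an edgeR adjusted p of 0.0275. It was the only one of the 7 called, where 3.1% of 15046 genes were. *Zdhhc2* had 7.89 ± 5.36 CPM in WT C16 against 3.39 ± 2.47 CPM in WT DMSO (SD, n = 3 each), a log2 change of 1.29 ± 0.75 (SE) that was not called (edgeR adjusted p 0.349). Its 3 WT C16 libraries were nonetheless 2.72, 2.25 and 2.19 times the DMSO library of the same number. The replicate number was also used as a block, though replicate 2 standing apart can by itself produce the same-number WT correlations behind it. With the block, *Zdhhc2* was called with a log2 change of 1.31 ± 0.18 (SE) and an edgeR adjusted p of 0.00441, beside *Sfmbt2* at 0.00669, where 24.2% of genes were called. Without WT replicate 2 the same 2 genes were called, *Zdhhc2* at an edgeR adjusted p of 0.00151 and *Sfmbt2* at 0.00127, where 41.7% of genes were.

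The *Sfmbt2* call in WT C16 against WT DMSO was lost, at edgeR adjusted p between 0.0994 and 0.129, without WT C16 replicate 1, WT C16 replicate 3, WT DMSO replicate 1 or WT DMSO replicate 3, while its log2 change lay between 0.905 and 1.002. It was also lost with any gene that had a count in the test (0.0581) and with only the 2 groups in the fit (0.0621).

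The other 5 genes were not called in WT C16 against WT DMSO without or with the block, and without WT replicate 2 neither were 4 of them, while *Ncam1* did not pass the filter there and was not tested. With the replicate block the log2 change and its 95% confidence interval were 0.11 (-0.29 to 0.50) for *Amot*, 0.10 (-0.41 to 0.61) for *Myo18b*, -0.438 (-0.9998 to 0.12) for *Slc16a7*, 0.14 (-0.77 to 1.04) for *Nrg2* and 1.13 (-0.38 to 2.64) for *Ncam1*. Without the block the intervals were wider, such as -2.18 to 2.26 for *Myo18b*, -2.44 to 3.27 for *Nrg2* and -3.93 to 5.66 for *Ncam1*. The difference of the C16 change between the genotypes, AE9a minus WT, was log2 1.64 ± 0.23 (SE) for *Sfmbt2* and 1.38 ± 0.79 (SE) for *Zdhhc2*, and lay between 1.32 and 2.47 for the other 5, given with no test because AE9a C16 and AE9a DMSO enter it.

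**Figure D2:**
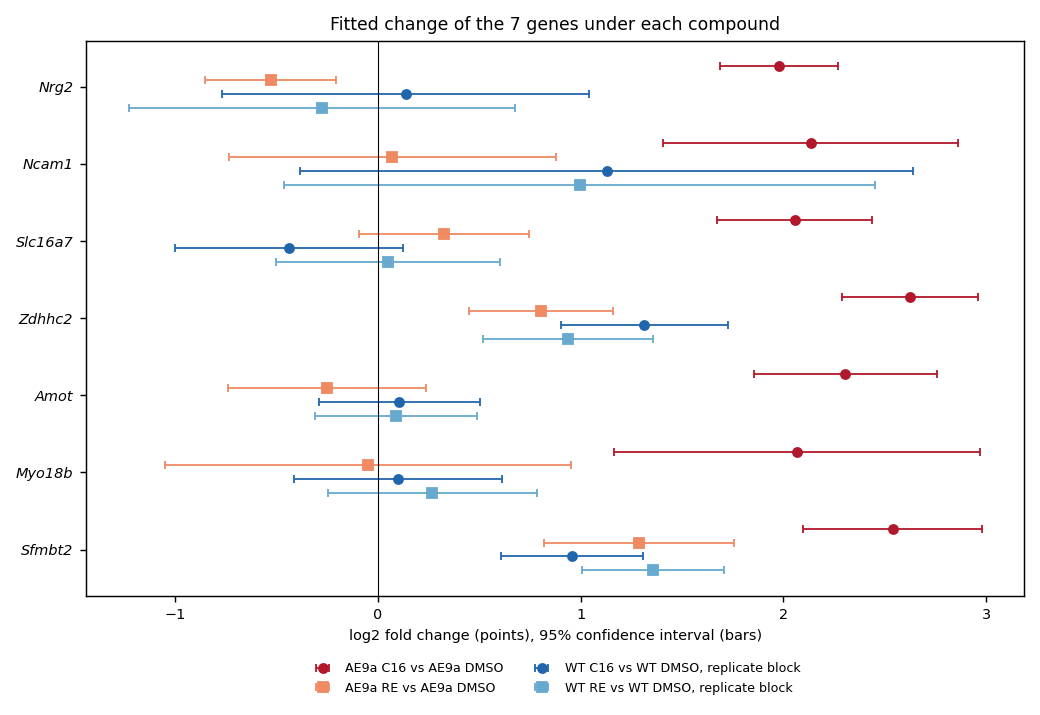
Fitted log2 fold change (horizontal axis; 0 is no change) of each gene under C16 and RE against DMSO, with 95% confidence intervals; AE9a values from the fit of 9 AE9a libraries, WT values with the replicate block. C16 in AE9a lies right of the other 3 points for each of the 7 genes, and *Zdhhc2* and *Sfmbt2* have all 4 intervals above 0.

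Under RE in WT cells, *Sfmbt2* had 8.08 ± 0.690 CPM against 3.22 ± 0.2296 CPM in WT DMSO (SD, n = 3 each), a log2 change of 1.35 ± 0.15 (SE) with an edgeR adjusted p of 0.0638. None of the 7 was called by edgeR, where 0.0266% of genes were (4 of 15046); at an unadjusted p under 0.05 it was 1, *Sfmbt2*, and DESeq2 called 1. With the replicate block *Sfmbt2* was called at an edgeR adjusted p of 0.0239, where 0.512% of genes were, and without WT replicate 2 at 0.00189, where 8.02% of genes were. The WT RE libraries were at 2.80, 2.11 and 2.66 times the *Sfmbt2* level of the WT DMSO library of the same number. *Zdhhc2* had a log2 change of 0.94 ± 0.18 (SE) with the block, with an edgeR adjusted p of 0.0753, and same-number ratios of 1.61, 1.91 and 2.1.

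C16 and RE were compared directly in WT cells, at doses and times the labels do not give. None of the 7 was called by edgeR in WT C16 against WT RE, where 11.9% of genes were; at an unadjusted p under 0.05 it was 1, *Sfmbt2*, and DESeq2 called 0. *Sfmbt2* was at 5.98 ± 0.300 CPM in WT C16 and 8.08 ± 0.690 CPM in WT RE (SD, n = 3 each), a log2 difference of -0.39 ± 0.15 (SE; 95% confidence interval -0.74 to -0.05) with an edgeR adjusted p of 0.123. Its groups did not overlap, a trait whose share over all genes is not given here. With the replicate block the edgeR adjusted p was 0.065, where 34.2% of genes were called, and without WT replicate 2 it was 0.0213, where 44.3% were. For *Zdhhc2* the interval with the block was -0.02 to 0.77. In AE9a the order was the other way for *Sfmbt2*: C16 lay above RE by a fitted log2 difference of 1.25 ± 0.18 (SE), a description.

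WT replicate 2 was the high library for most of the 7 genes. Over its 3 libraries *Ncam1* averaged 11.6 CPM against 0.318 CPM in WT replicates 1 and 3, *Nrg2* 10.3 against 1.40 CPM, *Myo18b* 15.4 against 3.44 CPM and *Slc16a7* 5.10 against 1.47 CPM. *Zdhhc2* averaged 10.7 against 3.47 CPM and *Amot* 24.9 against 10.8 CPM. In 6 of the 7 genes every replicate 2 library was above every other WT library, as in 11.4% of 14557 genes with a mean of at least 10 fragments; *Sfmbt2*, with 5.71 against 5.78 CPM, was the exception. The levels of *Ncam1* (6.63 to 17.2 CPM) and *Myo18b* (13.8 to 17.6 CPM) in replicate 2 overlapped those of AE9a C16. *Nrg2* (5.79 to 14.7 CPM) and *Zdhhc2* (6.24 to 14.05 CPM) stayed below AE9a C16, as did *Amot* (20.6 to 28.97 CPM), while *Slc16a7* (3.85 to 6.67 CPM) overlapped. The 12 stromal and endothelial markers had sums of 177.7, 293.8 and 297.7 CPM in replicate 2 against 660.9 to 1825 CPM in the other WT libraries. Most of these sums was *Vwf* and *Pecam1*, genes of endothelium and megakaryocytes. Their group means were 1016 and 178.2 CPM in WT C16 and 249.1 and 264.4 CPM in WT DMSO. *Pdgfrb*, a stromal gene of the list, had group means of 26.1 CPM in WT C16, 29.9 CPM in WT RE and 27.4 CPM in WT DMSO. The stromal genes *Col1a1*, *Col1a2*, *Col3a1*, *Pdgfra*, *Lepr* and *Cxcl12* had group means of at most 2.504 CPM in WT. Mast cell markers were at 1452 to 2986 CPM against 2833 to 5120 CPM, erythroid markers at 6.19 to 25.4 CPM against 35.3 to 56.6 CPM, and natural killer and T cell markers at 1.24 to 2.05 CPM against 6.21 to 10.6 CPM. Their part in the high levels was not tested.

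**Figure D3:**
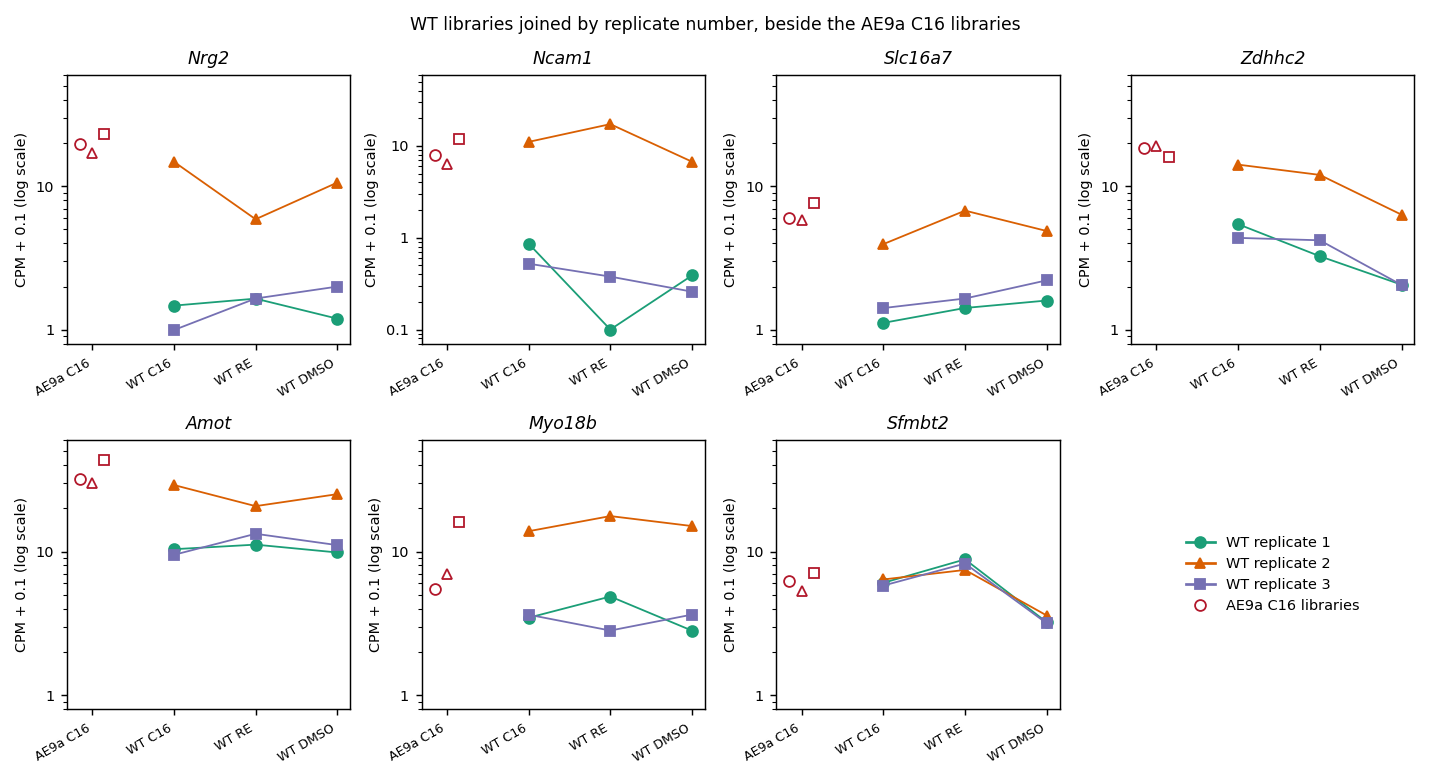
Level of each gene as CPM + 0.1 on a log axis in WT libraries, joined by replicate number, with the 3 AE9a C16 libraries at the left. Replicate 2 (triangles) lies above replicates 1 and 3 in 6 panels, while for *Sfmbt2* the 3 lines run together, with C16 and RE above DMSO.

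Across all 18 libraries the log2 levels of the 6 genes other than *Sfmbt2* had Pearson correlations of 0.586 to 0.881 in their 15 pairs, while the 6 pairs with *Sfmbt2* had 0.0536 to 0.646. These are descriptions, since the libraries share treatments and the AE9a C16 level chose the genes. The mean standardized level of the 7 was 1.09 to 1.51 in AE9a C16 and 0.737 to 1.14 in WT replicate 2, and -0.85 to -0.326 in the other 12 libraries. Among the genes whose level over the 18 libraries was most like that mean were *Nudt4* (Pearson correlation 0.976), *Slc35b2* (0.972), *Odf2* (0.971), *Brd3* (0.967), *St6galnac6* (0.965), *P4hb* (0.962), *Lonp1* (0.961), *Glyr1* (0.957) and *Mrpl45* (0.954). Spearman correlations of these genes with that mean were lower, from 0.622 for *Glyr1* to 0.872 for *St6galnac6*. *Nudt4* was at 89.5 CPM in AE9a C16 and 53.8 CPM in AE9a DMSO. The nearest single genes were *Josd1* for *Nrg2* (0.978), *Tssc4* for *Ncam1* (0.969), *Cyb5r1* for *Slc16a7* (0.955), *Setmar* for *Zdhhc2* (0.941), *Cnot7* for *Amot* (0.980), *Cxcr4* for *Myo18b* (0.936) and *Slc35e4* for *Sfmbt2* (0.875). The next nearest were *Cenpa* and *Rad21* for *Nrg2*, *Dennd11* and *Tpcn1* for *Ncam1*, *Odf2* and *Lonp1* for *Slc16a7*, *Srsf5* and *Eef1b2* for *Zdhhc2*, *Top3b* and *Gnpat* for *Amot*, *Larp4b* and *Klhl33* for *Myo18b*, and *Chmp7* and *AU041133* for *Sfmbt2*, with correlations of 0.862 to 0.977.

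Between the genotypes under RE, *Sfmbt2* was lower in AE9a, with 2.57 ± 0.519 CPM in AE9a RE and 8.08 ± 0.690 CPM in WT RE (SD, n = 3 each). The log2 change was -1.58 ± 0.16 (SE) with an edgeR adjusted p of 4.9e-06, and it was called in every fit and with each library left out. *Amot* had 5.93 ± 1.08 CPM in AE9a RE and 14.97 ± 5.01 CPM in WT RE (SD, n = 3 each), a log2 change of -1.28 ± 0.46 (SE) with an edgeR adjusted p of 0.0415. These 2 were called where 35.8% of 15809 genes were. The *Amot* call was lost without AE9a RE replicate 1 (0.07), AE9a RE replicate 2 (0.134), AE9a RE replicate 3 (0.102), WT RE replicate 2 (0.16) or WT RE replicate 3 (0.0574) in edgeR, and with any gene that had a count in the test (0.0543). *Myo18b* had a log2 change of -1.91 ± 0.82 (SE) with an edgeR adjusted p of 0.0838.

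Leaving out WT replicate 2 under every treatment turned the sign of 3 genes in AE9a RE against WT RE. *Zdhhc2* was then higher in AE9a, at log2 0.57 (edgeR adjusted p 0.0173) in place of -0.30, and *Ncam1* was higher at log2 3.91 (edgeR adjusted p 0.000467) in place of -1.47. The *Ncam1* value then rests on 0 and 5 fragments in the 2 WT RE libraries against 34 to 53 fragments in AE9a RE. *Slc16a7* was at log2 0.52 (edgeR adjusted p 0.0728) in place of -0.68. *Nrg2* was higher at log2 1.26 (edgeR adjusted p 0.00049), while *Sfmbt2* at -1.62 and *Amot* at -0.94 stayed lower. In that fit 5 of the 7 genes were called, where 54.6% of 16127 genes were.

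By description, every AE9a C16 library lay above every WT C16 library for *Zdhhc2*, *Amot*, *Slc16a7* and *Nrg2*, as for 18.3% of genes. *Sfmbt2* was level there, with 6.12 ± 0.891 CPM in AE9a C16 and 5.98 ± 0.300 CPM in WT C16 (SD, n = 3 each). Under DMSO *Sfmbt2*, with 1.07 ± 0.0839 CPM in AE9a against 3.22 ± 0.2296 CPM in WT (SD, n = 3 each), and *Amot*, with 7.30 ± 1.57 CPM in AE9a against 15.3 ± 8.48 CPM in WT (SD, n = 3 each), lay below WT in every library, as did 26% of genes.

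Relatives and partners of the 7 genes moved in both directions in AE9a C16 against AE9a DMSO. Of 125 tested genes in 7 lists, 42 rose and 39 fell, where 33.1% of all genes rose and 33.2% fell by edgeR at an adjusted p of 0.05. Without the library labelled AE9a C16 replicate 3, 83 of the listed genes were called in either direction. Partners of *Ncam1* gave 0 risen and 5 fallen of 7 tested, with a median log2 change of -1.04, beside 0.00 over all genes; at an unadjusted p under 0.05 and by DESeq2, 0 rose as well. *Fgfr1*, a growth factor receptor that NCAM1 binds, was at 19.4 CPM in AE9a C16 and 263.9 CPM in AE9a DMSO, a log2 change of -3.72 ± 0.60 (SE; edgeR adjusted p 0.00047). *Prnp*, the prion protein, fell by 3.21 on the log2 scale, the kinase *Fyn* by 1.48 and the adhesion molecule *L1cam* by 1.04. In the monocarboxylate transport list 5 of 12 rose and 0 fell, also at an unadjusted p under 0.05 and by DESeq2. *Ldhb*, a lactate dehydrogenase subunit, rose by log2 1.596 ± 0.17 (SE; edgeR adjusted p 3.14e-05), *Slc16a1*, the transporter MCT1, by 0.85, *Emb*, a partner protein of these transporters, by 0.82 and *Slc16a10*, a carrier of aromatic amino acids, by 0.30.

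Of the neuregulin and ERBB list, 5 of 14 rose and 3 fell. The EGF receptor ligands *Tgfa* (log2 -3.84) and *Btc* (log2 -2.69) fell, while *Bace1*, a protease that cuts neuregulins, rose by log2 1.44 and *Lrig1*, a brake on ERBB receptors, by 1.36. *Erbb3*, a neuregulin receptor named after its value was seen, fell by 1.29 on the log2 scale, with 6.26 CPM in AE9a C16 and 15.7 CPM in AE9a DMSO (edgeR adjusted p 2.94e-05). The Polycomb list had 17 of 32 risen and 9 fallen, with a median log2 change of 0.27. *Cbx2* rose by log2 1.09, while *L3mbtl1*, another MBT-repeat protein, fell by 2.20, *Phf1* by 1.91 and *Phc1* by 1.59 on the log2 scale. *Sfmbt1*, the paralog of *Sfmbt2* and also named after its value was seen, fell by 0.92 on the log2 scale, with 44.9 CPM in AE9a C16 and 87.0 CPM in AE9a DMSO (edgeR adjusted p 3.03e-06).

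The Hippo and motin list had 4 of 17 risen and 6 fallen. The 2 paralogs of *Amot* went opposite ways, with *Amotl1* at log2 -2.13 ± 0.21 (SE; edgeR adjusted p 2.28e-05) and *Amotl2* at log2 1.32 ± 0.30 (SE; edgeR adjusted p 0.00383). *Wwc1*, an upstream member of the Hippo pathway, fell by 2.04 on the log2 scale and its paralog *Wwc2* rose by 0.86. The *Wwc1* value rests on few fragments, with means of 0.0929 CPM in AE9a C16 and 0.412 CPM in AE9a DMSO. In AE9a C16 libraries 3 fragments make 0.118 to 0.154 CPM. Among palmitoyltransferases and thioesterases 6 of 26 rose and 9 fell, among them *Zdhhc8* at log2 0.60, *Zdhhc24* at -1.01, *Zdhhc14* at -0.85 and the thioesterase *Lypla2* at -0.67. Among unconventional myosins 5 of 17 rose and 7 fell, with the organelle motor *Myo5a* at log2 0.82 higher, and *Myo1d* at -3.003 and *Myo15b* at -1.37 lower. The lists were written with earlier results of these data known, and nothing particular to a list is read from its count.

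**Figure D4:**
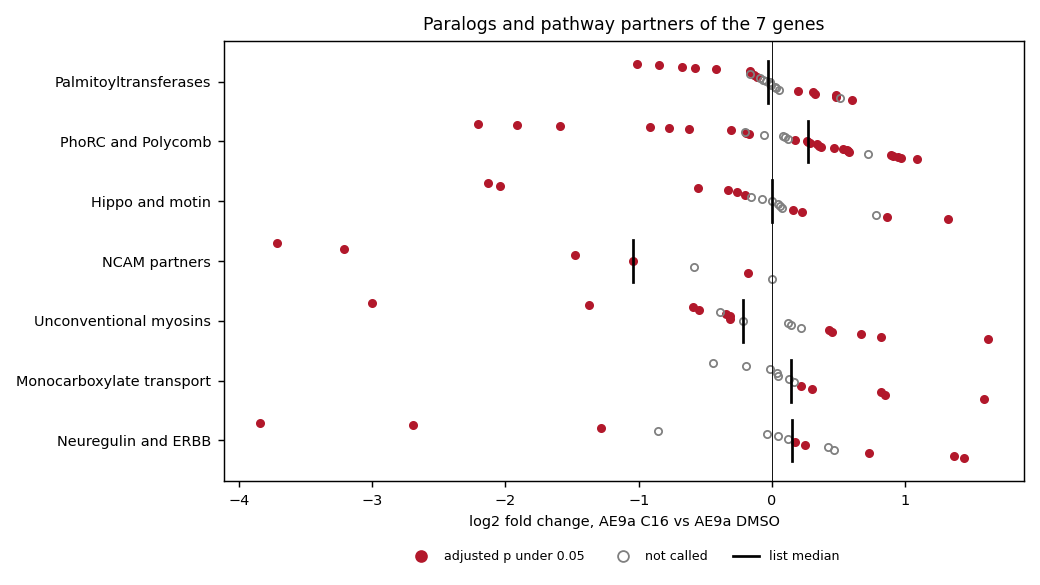
Log2 fold change in AE9a C16 against AE9a DMSO (horizontal axis) of each tested gene in the 7 lists of paralogs and partners (rows); filled points passed an adjusted p of 0.05, black lines are list medians. The NCAM partner list has its median at -1.04, and the other 6 medians lie between -0.21 and 0.27.

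In WT C16 against WT DMSO 1 of 137 listed genes rose and 2 fell, where 3.1% of all genes were called. *Ezh2*, the methyltransferase of the Polycomb complex PRC2, rose by log2 0.55 ± 0.09 (SE; edgeR adjusted p 0.0294), with 109.9 CPM in WT C16 and 78.5 CPM in WT DMSO. *L1cam* fell by 1.22 (edgeR adjusted p 0.0447) and *Myo1d* by 0.91 (edgeR adjusted p 0.034) on the log2 scale. With the replicate block 18 rose and 21 fell, where 24.2% of all genes were called. Without WT C16 replicate 2 it was 15 called in either direction, and without WT C16 replicate 1, WT C16 replicate 3, WT DMSO replicate 1 or WT DMSO replicate 3 it was 0 by edgeR.

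Genes beside the 7 on the chromosome were read as well. Of the 14 nearest tested genes, 1 on each side, 9 rose in AE9a C16 against AE9a DMSO, 1 fell and 4 were not called, where 33.1% of all genes rose and 33.2% fell. Their median log2 change was 0.47, beside 0.00 over all genes, and nothing particular to these neighbours is read from it. *Lrig3*, 576.6 kb from *Slc16a7*, rose by log2 1.46 ± 0.30 (SE; edgeR adjusted p 0.00209), *Micu3*, 34.7 kb from *Zdhhc2*, by 0.86, *Grk3*, 14.03 kb from *Myo18b*, by 0.84 and *Cxxc5*, 152.9 kb from *Nrg2*, by 0.73. *Itih5*, 113.9 kb from *Sfmbt2*, rose by 0.64 and *Cnot7*, which overlaps *Zdhhc2*, by 0.52. *Usp15*, 2022 kb from *Slc16a7*, rose by 0.43, *Alg13*, 1072 kb from *Amot*, by 0.33 and *Pura*, 80.9 kb from *Nrg2*, by 0.33. *Prkcq*, a T cell kinase 576.9 kb from *Sfmbt2*, fell by 3.27 on the log2 scale, with 3.02 CPM in AE9a C16 and 30.5 CPM in AE9a DMSO. Not called were *Lrch2* (log2 0.66, 1965 kb from *Amot*) and *Plet1* (-0.68, 694.9 kb from *Ncam1*). Neither were *Ttc12* (-0.07, 15.9 kb from *Ncam1*) and *Hps4* (-0.10, 310.5 kb from *Myo18b*). Each of the 14 log2 changes but that of *Prkcq* was smaller in size than that of the gene among the 7 it lies beside. The 7 were chosen for large rises in this same comparison, so nothing is read from that.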

How the data were processed

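The authors deposited whole-number counts of fragments per gene, 1 table per genotype; per the file headers featureCounts 1.6.2 counted read pairs over exons from primary alignments, ignoring strand, on RefSeq GRCm39. Per the submitters' processing notes the tools named are HISAT2 2.1.0, featureCounts 2.0.3, fastp 0.23.2, FastQC 0.11.9, Subread and DESeq2, with no role given; which featureCounts version made the tables is not known. Totals were 16053727 to 27207748 fragments, and 0 columns lacked a sample.

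Genes passing filterByExpr (14704 in AE9a, 15046 in WT, 15809 in all 18 libraries) were scaled by TMM and tested with edgeR 4.0.16 quasi-likelihood F tests under R 4.3.3, adjusted by Benjamini-Hochberg over all of them at 0.05. Contrasts between treatments used the 9 libraries of 1 genotype, and contrasts between genotypes used all 18. All 7 members passed these 3 filters. Spread between replicates, as the biological coefficient of variation, came to 0.103 for AE9a, 0.329 for WT and 0.137 for WT with the block. Scripts were tested on simulated data. Exon lengths in the deposited tables gave CPM per kilobase. CPM distances are root mean square log2 differences.

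Same-number WT libraries had correlations of deviations from group means of 0.53 to 0.84 in all 9 pairs, so their numbers were taken as pairs; replicate 2 standing apart can produce this by itself, and different-number pairs reached 0.592. AE9a C16 and AE9a DMSO correlations, 0.0614, 0.254 and 0.142, did not meet the rule, while those of AE9a RE and AE9a DMSO, 0.337, 0.251 and 0.31, did. With the block the AE9a RE against DMSO values of all 7 members kept their sign, among them -0.25 for *Amot* and 0.33 for *Slc16a7*.

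The members, gene lists and naming rule were chosen with earlier results of these data known. Named are all members, up to 4 called genes of largest change per list, nearest neighbours, the 10 genes most like the members' mean and the 3 nearest to each; exceptions are marked, and some genes that the rule names are not reported here. Alternatives were DESeq2 1.42.0, RLE and upper-quartile scaling, no filter, the block, other sets of libraries and each library left out; leaving out WT replicate 2 together with the block was added after seeing the data.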

Additional observations from a re-analysis of the deposited data

Results flagged for a closer look

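*Slc16a7* had values on opposite sides of its same-number DMSO libraries under C16 in the 2 genotypes, in each of 3 libraries. Its mean log2 change in AE9a was 2.01, with each C16 library set against the mean of the 3 AE9a DMSO libraries. All 3 AE9a C16 libraries were above DMSO, as for each of the 7 genes, which were chosen for that rise. The pattern was looked for in all 7 genes under both compounds. Its share over all genes is not given here. In WT the mean over same-number libraries was -0.51, with C16 at 0.679, 0.807 and 0.624 times the DMSO library of the same number. With these unlike references, AE9a minus WT was 2.52. The difference was not tested, since the gene was chosen on the AE9a libraries, and the WT change alone was not called (edgeR adjusted p 0.831, or 0.213 with the replicate block) and was at log2 0.28 without WT DMSO replicate 2. Slc16a7 held between 20 and 107 fragments in WT libraries.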

How the results depend on the processing

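Depth limits *Ncam1* most, with 0 to 15 fragments in WT libraries other than replicate 2. Members called in WT C16 against WT DMSO were 1, and 0 with any count in place of filterByExpr or only the 2 groups compared, and 2 with the replicate block, without WT replicate 2, and without it with the block; leaving out a library gave 0 to 1. In WT RE against WT DMSO it was 0, and 1 under DESeq2, the replicate block, all 18 libraries, without WT replicate 2 and that with the block. In WT C16 against WT RE it was 0, and 1 without WT replicate 2 with or without the block. In AE9a RE against WT RE it was 2, 1 with any count, 5 without WT replicate 2, and 1 to 2 with a library left out. The block changed no other call of a member in these 4 comparisons than those given in the report.

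All genes called in WT C16 against WT DMSO were 467, and 206 with any count, 1878 by DESeq2, 3646 with the replicate block, 2999 with all 18 libraries, 81 with only the 2 groups, 6341 without WT replicate 2 and 6171 with the block as well; leaving out a library gave 0 to 1329. Those in WT RE against WT DMSO were 4, and 75 by DESeq2, 77 with the block, 29 with all 18 libraries, 0 with only the 2 groups, 1219 without WT replicate 2 and 1303 with the block as well, and 0 to 1 with a library left out. Those in WT C16 against WT RE were 1789, and 920 with any count, 3172 by DESeq2, 5145 with the block, 4497 with all 18 libraries, 281 with only the 2 groups, 6737 without WT replicate 2 and 6592 with the block as well, and 302 to 2161 with a library left out. Those in AE9a RE against WT RE were 5664, and 8801 without WT replicate 2. Related genes called in WT C16 against WT DMSO were 3, and 1 with any count, 12 by DESeq2, 39 with the block, 22 with all 18 libraries, 0 with only the 2 groups, 66 without WT replicate 2 with or without the block, and 0 to 15 with a library left out.

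In AE9a C16 against AE9a DMSO, all 18 libraries in 1 fit gave 5 palmitoyltransferase genes lower, 2 Hippo and motin genes higher and 3 lower, 1 NCAM partner higher, and 3 monocarboxylate and 3 neuregulin genes higher; any count gave 1 NCAM partner higher. Leaving out a library gave 0 to 1 NCAM partners higher and 0 to 1 monocarboxylate genes lower.

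Some log2 changes turned sign. In WT C16 against WT DMSO *Myo18b* was at -0.0082 with upper-quartile scaling, and without WT replicate 2 *Amot* was at -0.021 and *Nrg2* at -0.35, or -0.017 and -0.34 with the block. With a library left out *Amot* ranged from -0.59 to 0.73, *Myo18b* from -0.999 to 1.22, *Ncam1* from -1.95 to 4.25, *Nrg2* from -1.95 to 2.01 and *Slc16a7* from -1.21 to 0.28. *Zdhhc2* in WT C16 against WT RE ranged from -0.42 to 1.21. In AE9a RE against WT RE *Ncam1* was at 0.24 with the block; without WT replicate 2 *Zdhhc2* was at 0.57, *Ncam1* at 3.91 and *Slc16a7* at 0.52. With a library left out *Ncam1* ranged from -2.06 to 3.92, *Nrg2* from -0.049 to 1.26, *Slc16a7* from -1.06 to 0.52 and *Zdhhc2* from -0.63 to 0.57. In AE9a RE against AE9a DMSO *Myo18b* ranged from -0.22 to 0.11 and *Ncam1* from -0.21 to 0.29. The cause was not tested. All 7 log2 differences between AE9a C16 and AE9a DMSO kept their sign in every alternative.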
